A study of Drosophila melanogaster with 4 samples.

Results

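The 498 H3K4me3 peaks of white prepupae that lie on unplaced or heterochromatin sequences of the fly genome were taken from a list of 7743 peaks, of which they make up 6.43%. The name of the sequence alone decided which peaks were taken, but these sequences were chosen with earlier results of these data known. Uextra carried 419 of them, U carried 28, and 2LHet, 2RHet, 3LHet, 3RHet, XHet and YHet carried 51 together, while the other 7245 peaks lie on the arms 2L, 2R, 3L, 3R, 4 and X. The list is the authors' own, on FlyBase release 5, and gives each peak a start, an end and a score from their peak caller. It covers 2 libraries immunoprecipitated with a rabbit polyclonal antibody against trimethylated lysine 4 of histone H3 and 2 libraries of input DNA, all from Drosophila melanogaster at the white prepupal stage (WPP), which opens metamorphosis.

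Every library came from the strain Y cn bw sp, so immunoprecipitated and input libraries share 1 genotype. Its alleles were y[1], oc[R3.2], cn[1], bw[1], sp[1], Gr22b[1], Gr22d[1], CG33964[R4.2], Rh6[1], LysC[1], GstD5[1], MstProx[1] and lab[R4.2]. Whole animals hold many tissues, and the labels give neither the sex of the animals nor the number pooled. With 1 list for all libraries there is no value per library, so that no replicate error exists, the sequencing depth is unknown, and no test was made on any difference given here. Quartiles describe the spread between peaks, which are not replicates.

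H3K4me3 marks the first nucleosomes of actively transcribed genes and is placed there by methyltransferases of the Set1 and Trithorax family. Heterochromatin around the centromeres and on the Y chromosome is rich in repeats and in H3K9 methylation bound by HP1, and yet holds active genes such as light and rolled, which depend on that setting. In the assembly used by the authors, the Het sequences are scaffolds assigned to the heterochromatin of a given arm, U joins larger scaffolds with no assigned arm, and Uextra joins many short fragments of lower quality. Distances along U and Uextra are thus not distances along a chromosome, and the borders between their fragments were not used here.

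Peak scores outside the arms were moderate, and none was among the highest scores of the list. The median score was 99.4 on Uextra (quartiles 45.1 and 177), 55.9 on U (30.8 and 118) and 74.98 on the Het sequences (22.8 and 133), against 112 on the arms (21.9 and 262). These medians amount to 0.887, 0.499 and 0.670 times that of the arms for Uextra, U and the Het sequences. The highest score was 311 on Uextra, 293 on U and 274 on the Het sequences, against 629 on the arms. Of the arm peaks, 1230 or 17.0% scored above the highest member, of which 311 lay on 3R and none on chromosome 4. At the low end, scores under 50 made up 27.0% of the Uextra peaks, 46.4% of those on U and 41.2% of those on the Het sequences, against 37.8% on the arms and 37.3% of the whole list. Uextra therefore had a smaller share of weak peaks than the arms, and its scores ended at 311.

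Medians of width lay further from the arms than medians of score. The median peak spanned 723 bp on Uextra (quartiles 473.5 and 820.5), 471.5 bp on U (319 and 807) and 829 bp on the Het sequences (465.5 and 1470.5), against 1328 bp on the arms (551 and 2222). The widest member, 3097 bp, lay on XHet, whereas arm peaks reached 16763 bp. Peaks wider than 1000 bp numbered 13 of 419 on Uextra (3.10%), 6 of 28 on U (21.4%) and 23 of 51 on the Het sequences (45.1%), against 60.3% on the arms and 57.0% of the whole list. The smallest width in the whole list, 201 bp, was found on Uextra, U and the arms, and the narrowest Het peak had 206 bp.

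**Figure D1:**
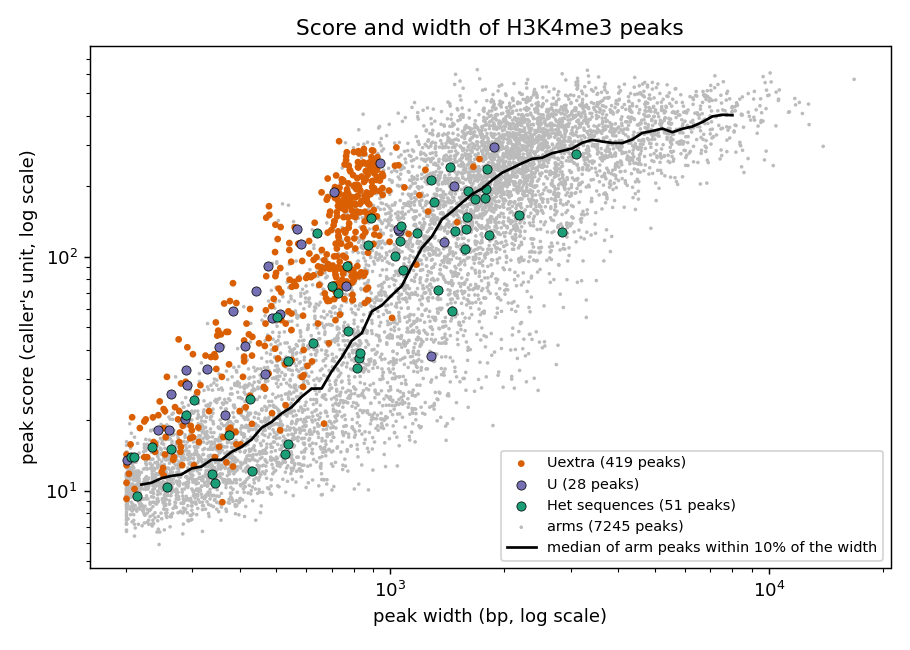
Score (vertical, log scale, in the caller's unit) against width (horizontal, log scale, in bp) for each peak of Uextra, U, the Het sequences and the arms; the black line is the median score of arm peaks within 10% of a given width. Uextra peaks crowd above the line at widths of 700 to 950 bp, and the Het peaks lie on both sides of it.

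Score was then set against that of arm peaks of the same width, since wide peaks score higher throughout the list. For each peak the median score of all arm peaks within 10% of its width served as the comparison, with 222 or more arm peaks for each member. Peaks on Uextra scored 3.06 times that value at the median (quartiles 1.91 and 4.11), those on U 2.27 times (1.61 and 3.26), and those on the Het sequences 1.15 times (0.794 and 1.58), against 1.00 (0.734 and 1.35) for arm peaks treated likewise. Uextra and U thus stood above the arms at equal width, while the quartiles of the Het sequences lay on both sides of 1. With peaks that reach the list's median score alone, which sets a floor on score in both groups, the ratio was 1.17 on Uextra, 0.854 on U (9 peaks) and 0.806 on the Het sequences, and against chromosome 4 in place of all arms it was 1.95 on Uextra. The zero of the score's scale is not known, so these ratios describe scores and not amounts of the mark. The median difference of a score from that of arm peaks of equal width was 62.75 on Uextra (quartiles 23.1 and 129), 31.2 on U (11.2 and 56.7) and 3.45 on the Het sequences (−11.4 and 29.3), against 0.09 on the arms (−25.6 and 38.4).

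Counts of peaks above their arm counterparts depend on rank alone and not on the scale of the score. On Uextra 409 of 419 peaks (97.6%) scored above the arm median for their width, on U 26 of 28 (92.9%) and on the Het sequences 28 of 51 (54.9%), against 50.2% on the arms and 53.0% of the whole list. Scores above the 90th percentile of arm peaks of equal width were found for 268 peaks of Uextra (64.0%), 19 of U (67.9%) and 7 of the Het sequences (13.7%), against 10.1% on the arms. Over the whole list that share was 13.2%, so the Het share is near the background and the shares of Uextra and U are well above it.

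The gap at equal width on Uextra was largest for peaks of middling width. On Uextra the median ratio was 2.03 for the 152 peaks of 600 bp or less, 3.42 for the 254 peaks above 600 and up to 1000 bp, and 1.49 for the 13 wider ones. Between 600 and 800 bp the median score was 117.7 for the 142 peaks of Uextra and 72.4 for 6 peaks of the Het sequences, against 33.45 for 464 arm peaks. Between 800 and 1000 bp it was 190 for 112 peaks of Uextra and 38.8 for 5 Het peaks, against 57.4 for 438 arm peaks. The lower quartile of Uextra in that range, 149, lay above the upper quartile of the arms, 107.7. Below 400 bp the medians were 18.6 on Uextra (83 peaks), 25.9 on U (11) and 13.9 on the Het sequences (11), against 11.8 on the arms (1273). From 1000 to 1500 bp the 10 Uextra peaks had a median score of 190, the 5 of U one of 128 and the 11 Het peaks one of 126.6, against 111 on the arms. For peaks wider than 1000 bp the median ratio to arm peaks of equal width was 1.31 on U and 0.940 on the Het sequences. The Het ratio was 1.99 for the 11 peaks above 600 and up to 1000 bp, and 1.30 for the 17 narrower ones. Among those 11, the 5 peaks from 800 to 1000 bp had a median score below that of the arms, as given above.

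**Figure D2:**
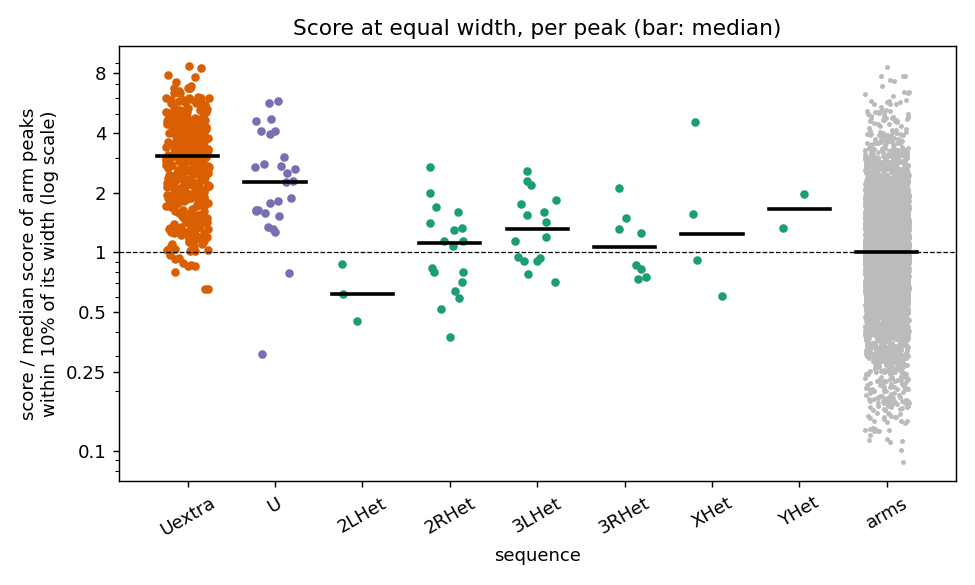
Score of each peak divided by the median score of arm peaks within 10% of its width (vertical, log scale), by sequence; each point is a peak, bars are medians and the dashed line marks 1. Medians are 3.06 on Uextra and 2.27 on U, and lie between 0.619 on 2LHet and 1.65 on YHet among the Het sequences.

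The 3 peaks with the highest ratios lay on Uextra. The first, at 11832709 to 11833440, was also the strongest member, with a score of 311 over 732 bp, 8.70 times the 35.8 of the 340 arm peaks of its width. A peak of 478 bp at 8143046 to 8143523 scored 164, against 19.3 for the arm peaks of its width (ratio 8.49). A neighbour in rank, of 479 bp at 3801246 to 3801724, scored 151 (ratio 7.80). All 3 are narrow peaks, and the median width of arm peaks with such scores was 1596 bp or more. Such ratios also occur on the arms, where the highest was 8.53.

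At the low end stood a peak of U and a pair from the Het sequences. The U peak, at 7285224 to 7286500, was 1277 bp wide and scored 37.4, against 121 for arm peaks of its width (ratio 0.310). On 2RHet the peak at 3178339 to 3179796 (1458 bp) scored 58.4, a ratio of 0.375. On 2LHet the peak at 33762 to 36605 covered 2844 bp and scored 128, a ratio of 0.452. These are broad peaks for their score, and ratios on the arms went down to 0.0888.

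The reverse comparison, of width at equal score, separated Uextra and U from the Het sequences as well. Each peak was set against arm peaks within 10% of its score. The median width was 0.492 times that of the arms on Uextra (quartiles 0.430 and 0.612), 0.486 times on U (0.416 and 0.677) and 0.844 times on the Het sequences (0.660 and 1.07), against 1.00 on the arms (0.785 and 1.35). Widths under 0.5 times the arm median were found for 219 Uextra peaks (52.3%), 15 U peaks (53.6%) and 3 Het peaks (5.88%), against 2.58% of arm peaks. In the whole list 424 peaks (5.48%) were that narrow, a count that includes those of Uextra and U. On chromosome 4 the share was 9.21%, and the Het share rests on 3 peaks.

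With increasing score, Uextra peaks widened less than arm peaks. From scores of 25 to 50 the median width was 411 bp on Uextra and 795.5 bp on the Het sequences, against 779 bp on the arms. From 100 to 150 it was 750 bp on Uextra, 1047 bp on U and 1172 bp on the Het sequences, against 1471 bp on the arms. From 150 to 200 it was 803 bp on Uextra and 1721 bp on the Het sequences, against 1742.5 bp on the arms. From 200 to 250 the 47 Uextra peaks had a median of 863 bp and 3 Het peaks one of 1436 bp, against 2007 bp on the arms. From 250 to 320 the 20 Uextra peaks had a median of 851.5 bp, against 2305 bp on the arms. Among the 146 Uextra peaks scoring 150 or more, the quartiles of width were 764 and 894 bp, against 1741 and 3310 bp for the 3184 arm peaks of such scores.

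**Figure D3:**
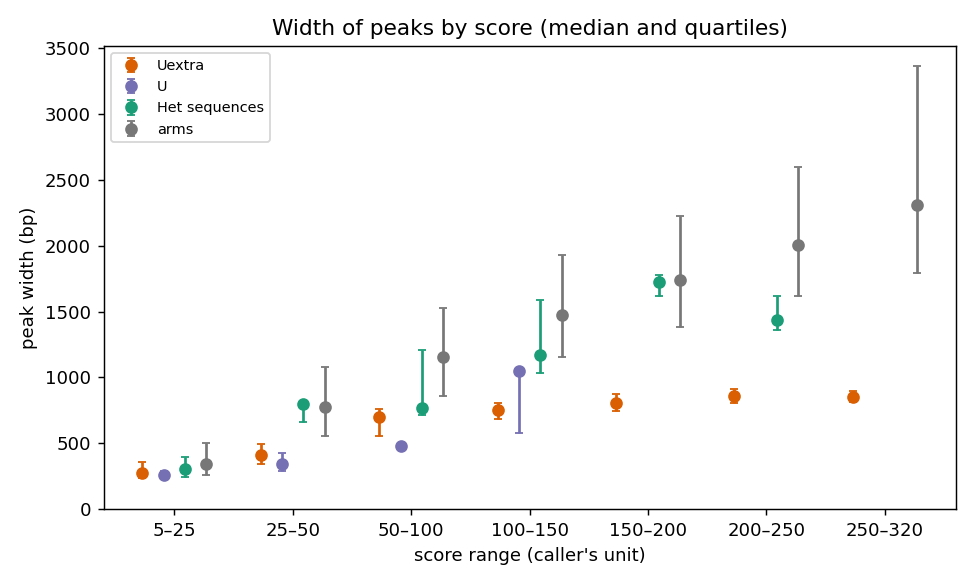
Median width in bp (points) with quartiles (bars) of the peaks of Uextra, U, the Het sequences and the arms in 7 score ranges; points stand for 3 peaks or more. Uextra medians lie between 750 and 863 bp above a score of 100, while arm medians reach 2305 bp.

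A large share of the Uextra peaks fell in one narrow band of widths. Between 700 and 950 bp, a range chosen after the values were seen, lay 212 of 419 Uextra peaks (50.6%), 3 of 28 U peaks (10.7%) and 9 of 51 Het peaks (17.6%), against 7.91% of arm peaks. The share over the whole list was 10.3%. Score and width remained tied within Uextra, with a Spearman's rho of 0.817 over its 419 peaks, against 0.879 over the 7245 arm peaks. Among peaks scoring 150 or more rho was 0.341 on Uextra and 0.457 on the arms. These correlations describe values of 1 peak call and carry no test.

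The upper limit of width on Uextra also varied along the sequence. All 13 peaks wider than 1000 bp lay among the first 209 in sequence order, and none among the following 210, where the widest had 932 bp. On the arms, cut at the middle peak in the same way, such peaks stood on both sides, with 539 before and 514 after it on 3R, and 24 before and 16 after it on chromosome 4. The Uextra peaks were also divided, in sequence order, into 10 groups of 41 or 42 peaks. The 90th percentile of width was 1191 bp in the first group, between 882 and 953 bp in the second to the eighth, 831.5 bp in the ninth and 811 bp in the last. Beyond 20 Mb the widest of 46 peaks had 864 bp, and beyond 26 Mb the widest of 12 had 658 bp.

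Median width did not follow the upper limit. It was 564.5 bp in the first of these groups, 380.5 bp in the second and between 644 and 767.5 bp in the third to the last. Over all Uextra peaks rho between position and width was 0.0867. Median scores were also lower at the beginning, with 57.4 and 47.97 in the first and second groups, and highest in the seventh, at 160. At equal width the median ratio to the arms was 1.86 in the first group and between 2.42 and 3.68 in the others.

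**Figure D4:**
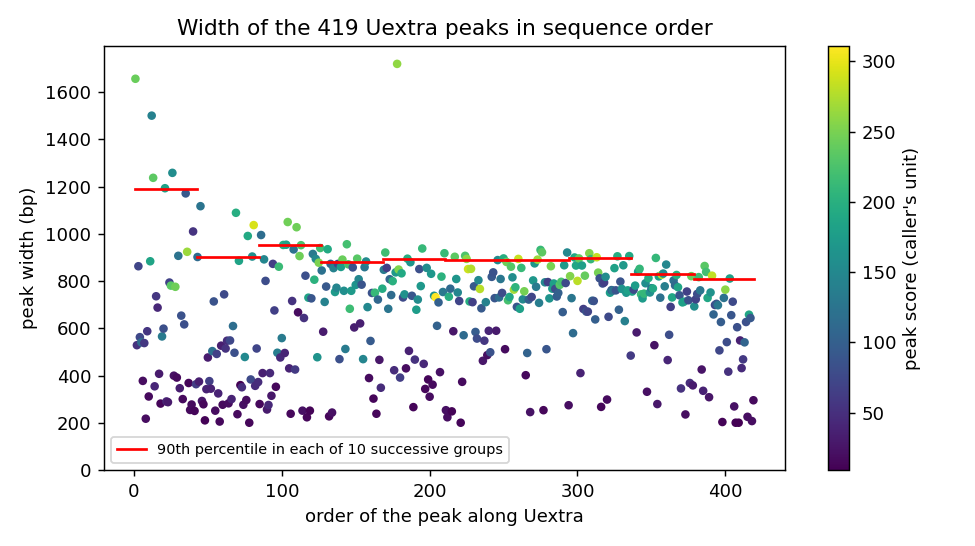
Width in bp (vertical) of the 419 Uextra peaks in the order in which they lie on the sequence (horizontal), coloured by score; red lines give the 90th percentile of width in each of 10 successive groups. Peaks over 1000 bp lie among the first 209, and the last group has the lowest 90th percentile, 811 bp.

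The strongest Uextra peaks were of similar width to one another. After the 311 described above came one of 292, from 4260050 to 4261086, which spanned 1037 bp. Those at 12498452 to 12499302 (851 bp), 13938874 to 13939767 (894 bp) and 16171955 to 16172855 (901 bp) scored 288, 284 and 283. Arm peaks of those scores had a median width of 2302 bp or more. The widest Uextra peak, 1719 bp at 10904514 to 10906232, scored 261, and stood apart from others around it, since the second widest beyond 8 Mb had 956 bp. The next in width, 1656 bp at 169273 to 170928 and 1500 bp at 586218 to 587717, scored 242 and 140.

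The 28 peaks of U lay from 1178861 to 9770013. The 3 strongest lay between 7221514 and 7587072, with weaker peaks among them. The highest score, 293, belonged to its widest peak, 1874 bp at 7585199 to 7587072, and was 1.35 times the score of arm peaks of its width. The second, at 7531829 to 7532766, scored 252 over 938 bp, a ratio of 4.07. The third, 1471 bp at 7221514 to 7222984, scored 199.6, a ratio of 1.27. Among the others, the ratio was 5.75 for the 710 bp peak at 9095409 and 5.65 for the 565 bp peak at 6902804, both singled out after their values were seen. The 19 U peaks of 600 bp or less had a median ratio of 2.64, the 3 above 600 and up to 1000 bp one of 4.07, and the 6 wider ones one of 1.31.

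The 6 Het sequences differed among themselves, although most held too few peaks for more than a listing. The 4 peaks of XHet scored 274 (3097 bp at 60057 to 63153), 242 (1436 bp at 84765 to 86200), 150 (2189 bp at 76256 to 78444) and 126.6 (640 bp at 74884 to 75523). They lay within 26.1 kb, and the last stood 4.54 times above arm peaks of its width, the highest ratio of any Het peak. The 3 peaks of 2LHet scored 178 (1772 bp at 167343 to 169114), 128 (the 2844 bp peak given above) and 107.5 (1570 bp at 31441 to 33010). All of them scored below arm peaks of equal width, with ratios of 0.876, 0.452 and 0.619.

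On 3LHet 16 peaks had a median score of 82.9 and a median width of 821.5 bp. Its highest score, 236, came from its widest peak, 1795 bp at 594604 to 596398, and its second, 212, from a peak of 1277 bp at 2397821 to 2399097. On 2RHet 18 peaks had a median score of 56.8 and a median width of 750.5 bp. The highest there were 191 (1599 bp at 391044 to 392642) and 147 (1593 bp at 470177 to 471769), and the widest, 1819 bp at 3181961 to 3183779, scored 123. The 8 peaks of 3RHet had a median score of 75.4 and a highest of 172, at 1935207 to 1936513 (1307 bp). The second on 3RHet, 131 over 1585 bp at 1897578 to 1899162, was its widest peak.

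YHet, a part of the Y chromosome, had the lowest median score of the Het sequences and the highest median ratio at equal width, 1.65, over 2 peaks, which scored 24.5 (303 bp at 306553 to 306855) and 13.9 (211 bp at 328025 to 328235). Both are narrow, and both scored above arm peaks of equal width, with ratios of 1.97 and 1.33. Neither reached a score of 50, whereas every peak of XHet and 2LHet did.

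Close neighbours were less frequent on Uextra, on U and on the Het sequences together than on the arms. Of these 3 classes, U and Uextra had the fewest, by distances that run along joined fragments whose borders were not used. How far apart or how densely their peaks lie on a chromosome is therefore unknown. A neighbouring peak within 1 kb was present for 16 Uextra peaks (3.82%), for 0 of 28 U peaks and for 20 Het peaks (39.2%), against 69.3% on the arms and 65.3% of the whole list. Chromosome 4, with 46.1%, came nearest to the Het sequences among the arms. Among single Het sequences the share ran from 0 of 2 peaks on YHet to 66.7% of 3 peaks on 2LHet. The median distance to the nearest peak was 19.3 kb along the joined fragments of Uextra and 79.4 kb along those of U. It was 4.61 kb on the Het sequences, against 0.386 kb on the arms. For the span between the first and last peak, the number was 14.7 per Mb on Uextra, 3.26 on U and 8.56 on the Het sequences combined, against 60.3 on the arms. Among the Het sequences, XHet with 153 and YHet with 92.2 per Mb lay above the arms, over spans of 26.1 and 21.7 kb that their few peaks define.

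**Figure D5:**
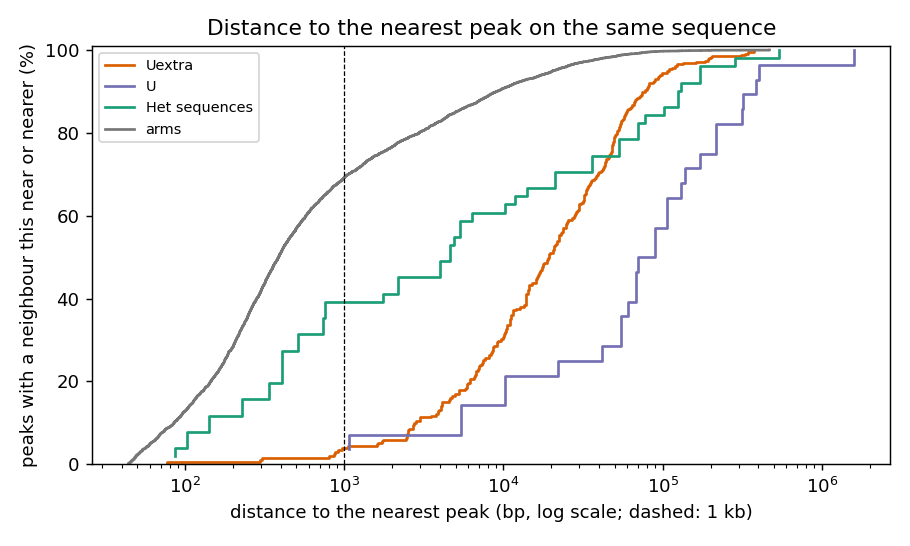
Cumulative share of peaks (vertical, percent) with a neighbour at or under a given distance in bp (horizontal, log scale) on Uextra, U, the Het sequences and the arms; the dashed line marks 1 kb. At 1 kb the curves stand at 3.82% for Uextra, 0 for U and 39.2% for the Het sequences, against 69.3% for the arms. Distances on Uextra and U run along joined fragments and are not distances along a chromosome.

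With peaks 50 kb or less apart taken as a group, a distance chosen after the values were seen, 38 of the 51 Het peaks (74.5%) fell into 14 groups. A neighbour within 50 kb along the joined fragments was also present for 79.0% of Uextra peaks and 28.6% of U peaks. The share was 98.5% on the arms and 97.0% of the whole list. The Het share is thus close to that of Uextra and below that of the arms. The largest had 4 peaks each and lay on 2RHet at 3178339 to 3200316, on 3LHet at 410558 to 460697, on 3RHet at 1807526 to 1826211 and on XHet at 60057 to 86200. The group of 3 peaks on 3LHet at 594604 to 607243 had the second-highest top score, 236, after the 274 of XHet. Where neighbours 500 bp or less apart were joined, the Het sequences had 7 stretches of 2 peaks and Uextra had 3. The longest of them covered 2543 bp on 2RHet at 390100 to 392642, where a weak peak of 536 bp scoring 35.7 stood beside the strongest of that sequence. On the arms 34.1% of such stretches held 2 or more peaks, and the most in one stretch was 11.

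The 8 close pairs on Uextra were of mixed strength, and whether both peaks of a pair lie on the same fragment was not examined. In the pair at 12498452 to 12500873 the peaks scored 288 and 198, and in the pair at 15459809 to 15462153 they scored 253 and 128. In the pair at 18319755 to 18321258, with the smallest gap on Uextra, 77 bp, the peaks scored 23.2 and 211. Both peaks were weak in the pair at 12912937 to 12914318, with 21.4 and 39.9. In the pair at 2368034 to 2369073 the scores were 18.5 and 65.98. In the other pairs the scores lay between 59.7 and 164.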

How the data were processed

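The values are 1 list of H3K4me3 peaks for 2 immunoprecipitated and 2 input libraries, on FlyBase release 5 per the file headers. The score of each peak was deposited by the authors without naming its scale, and it was used here to rank and describe peaks within the list. Ratios of scores are descriptions on a scale of unknown zero. The submitters' processing notes name the assembly BDGP5, the aligner BWA, the caller MACS2 and CASAVA in versions 1.7.0.2 and 1.7.0.3. For their settings, the pooling of replicates and the use of input, the sources used here give nothing, and the depth is unknown.

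Width was end minus start plus 1. Each peak was compared with all arm peaks within 10% of its width (for score) or of its score (for width). For score at equal width, the matching was checked on arm peaks drawn at random, with their scores multiplied by known factors. These draws kept the widths of arm peaks, so the check covers the calculation and not the comparison with members. The matching of width at equal score was not checked in this way. No test was made, since the list has no replicates. Peaks named in the text were the 5 highest and 3 widest of Uextra, the 3 highest and the widest of U, the 2 highest and the widest of each Het sequence, the 3 highest and 3 lowest ratios of score to arm peaks of equal width, and the longest joined stretch. Others were chosen after their values were seen. The members and comparisons were chosen with earlier results of these data known. Alternatives changed the score range, the joining of peaks, the arm peaks used and the tolerance. Genes and sequences under the peaks were not analysed here, since the gene table used is on release 6. Figures used matplotlib 3.10.9, and computations scipy 1.17.1, pandas 2.3.3 and numpy 2.4.6 under Python 3.11.15.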

Additional observations from a re-analysis of the deposited data

How the results depend on the processing

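Of 69 alternative values for 18 results, 50 stayed within the 95% binomial interval of the main value, an interval over peaks that covers no replicate error; 17 moved beyond it, and 2 whose main interval lay wholly on one side of 1 crossed 1. Further values crossed 1 where the main interval already held 1, namely the median score of Uextra against isolated arm peaks and the Het score ratio at equal width among stronger peaks, both given below, and the same Het ratio against the centromeric 2 Mb (0.936). Keeping only peaks that reach the list's median score sets a floor on score in both groups. The score ratio to the arms at equal width was then 1.17 on Uextra, 0.854 on U (9 peaks) and 0.806 on the Het sequences (21 peaks). It was thus below 1 on U and the Het sequences. In that range the width ratio at equal score was 0.448 on Uextra and 0.676 on U, and on Uextra the ratios of median score and median width were 0.687 and 0.376. With neighbours up to 500 bp apart joined, which left 416 stretches from 419 peaks on Uextra and 4726 from 7245 on the arms, the ratio of median score on Uextra was 0.644, that of median width 0.405 on Uextra and 0.262 on U, and the width ratio at equal score on Uextra 0.437, while 13.6% of the joined Het stretches had a neighbour within 1 kb. Against the 2226 arm peaks with no neighbour within 1 kb, the median score of Uextra was 1.15 times and its median width 0.603 times that of the arms. Against the 417 arm peaks of the centromeric 2 Mb, Uextra scored 2.77 times as high at equal width and was 0.519 times as wide at equal score. Against the 76 peaks of chromosome 4 these ratios were 1.95 and 0.623, and the Het width ratio was 1.06, on the other side of 1 from the main value of 0.844. The causes of the changes given here were not tested. Alternatives for the share under 0.5 times the arm width were chosen after the data were seen. No paired analysis was possible because single libraries have no values in the peak list, and no replicate could be left out for the same reason. What the unknown depth limits was not measurable here.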
